A study of Rattus norvegicus with 12 samples.

Results

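The Hox genes of the A, B, C and D clusters were followed in the rat uterus. These are the genes whose symbol is Hoxa, Hoxb, Hoxc or Hoxd followed by a number. A gene was included where it had a probe set (a group of array probes read as 1 value) that the array's annotation assigns to that gene alone. This rule found 22 genes of the 39 Hox genes that RefSeq lists for the rat (assembly GRCr8), among 14506 genes measured in this way. The HoxA cluster on chromosome 4 was represented by 5 of 11 genes, namely Hoxa2, Hoxa4, Hoxa5, Hoxa7 and Hoxa11. The HoxB cluster on chromosome 10 was represented by 7 of 10 (Hoxb2, Hoxb3, Hoxb4, Hoxb7, Hoxb8, Hoxb9 and Hoxb13). The HoxC cluster on chromosome 7 gave 4 of 9 (Hoxc4, Hoxc5, Hoxc9 and Hoxc12), and the HoxD cluster on chromosome 3 gave 6 of 9 (Hoxd1, Hoxd3, Hoxd4, Hoxd9, Hoxd10 and Hoxd13). Hoxa9, Hoxa10 and Hoxa13, which are known from the mouse for their part in the female tract, were not analysed here. Every member had 1 such probe set.

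All animals were ovariectomized young adult Lewis rats, so that the ovaries, the main source of estrogens, had been removed in every group, the vehicle group included. The vehicle group received the solvent DMSO. A second group received 17β-estradiol (E2), 4 µg/kg on each day, a further group 15 mg/kg on each day of 3-methylcholanthrene (3-MC), and the last group both compounds (E2+3-MC). The aryl hydrocarbon receptor is activated by 3-MC, a polycyclic aromatic hydrocarbon. Dosing lasted 3 days, the uterus was taken 24 hours after the last dose, and RNA of 1 rat was hybridised to 1 array, with 3 rats in each of the 4 groups. The RNA came from whole uteri, so that fewer cells of a type and less RNA per cell cannot be told apart. The labels name separate rats and give no litter or cage.

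Hox genes encode transcription factors that bind DNA through a homeodomain. They lie in clusters, and genes of the same number in different clusters (paralogs) descend from 1 ancestral gene. In the embryo they are switched on along the body axis in the order in which they lie on the chromosome, low numbers toward the head and high numbers toward the tail. The female tract is a textbook case: in the mouse, successive high-numbered Hoxa genes mark oviduct, uterus, cervix and vagina, and the uterus keeps expressing Hox genes in the adult, where steroid hormones act on some of them.

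The RefSeq promoter windows (assembly GRCr8, 250 bases before to 50 bases after the start of the gene, in the direction of transcription) are printed for the 4 members that passed the test between E2 and vehicle, all lower with E2. Whether these 4 share a regulator was not tested. Capitals mark GGTCA, the half-site of an estrogen response element, and GCGTG, the core of the element that the aryl hydrocarbon receptor binds. Both were searched on both strands, so that TGACC and CACGC are marked as well.
Hoxd9, chr3:80007756-80008055, + strand: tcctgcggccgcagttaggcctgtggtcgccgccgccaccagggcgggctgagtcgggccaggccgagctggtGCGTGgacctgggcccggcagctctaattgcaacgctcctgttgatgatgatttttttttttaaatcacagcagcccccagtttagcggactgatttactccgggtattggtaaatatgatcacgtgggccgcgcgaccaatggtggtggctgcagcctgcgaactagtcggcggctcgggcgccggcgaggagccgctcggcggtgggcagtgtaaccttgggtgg
Hoxd10, chr3:80001697-80001996, + strand: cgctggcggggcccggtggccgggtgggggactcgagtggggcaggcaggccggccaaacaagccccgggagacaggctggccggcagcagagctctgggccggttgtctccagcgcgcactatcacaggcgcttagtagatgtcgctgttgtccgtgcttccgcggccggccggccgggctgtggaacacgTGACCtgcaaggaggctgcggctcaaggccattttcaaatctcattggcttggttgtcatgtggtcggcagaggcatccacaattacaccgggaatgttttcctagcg
Hoxa7, chr4:82648192-82648491, - strand: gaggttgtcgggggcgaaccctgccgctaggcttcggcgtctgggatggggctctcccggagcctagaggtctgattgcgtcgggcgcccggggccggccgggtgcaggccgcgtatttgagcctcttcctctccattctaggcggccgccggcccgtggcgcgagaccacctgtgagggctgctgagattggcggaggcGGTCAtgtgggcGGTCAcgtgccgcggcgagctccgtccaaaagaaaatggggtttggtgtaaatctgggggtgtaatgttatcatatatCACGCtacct
Hoxc4, chr7:136048809-136049108, + strand: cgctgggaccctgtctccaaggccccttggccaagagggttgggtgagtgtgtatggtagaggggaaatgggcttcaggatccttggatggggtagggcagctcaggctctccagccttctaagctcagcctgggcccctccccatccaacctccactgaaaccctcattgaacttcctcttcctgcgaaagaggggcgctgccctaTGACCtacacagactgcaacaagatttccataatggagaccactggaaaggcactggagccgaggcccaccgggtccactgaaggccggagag

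Of the 22 members, 11 had a window in this table. The half-site GGTCA was found in 9 of these 11 windows, against 40.5% of all 33469 windows, and GCGTG in 5 of 11, against 29.7%. The Hoxd9 window held GCGTG and no GGTCA, those of Hoxd10 and Hoxc4 held GGTCA alone, and that of Hoxa7 held both. The full palindromic element, GGTCA followed by any 3 bases and TGACC, was in 0 of the 11 windows and in 0.0269% of all. A match of letters describes the window only. The 11 windows had a median G and C content of 62.7% against 51.7% over all windows, but ran from 44.7% (Hoxa2) to 74.7% (Hoxd13). They held a median of 24 CpG dinucleotides against 7, from 6 (Hoxc4) to 36 (Hoxd13).

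Intensities are the authors' summaries on a linear scale. A level below is log2(intensity + 16), a difference is between group means on that scale, given ± its standard error (SE), and such differences understate the change of dim genes. Levels of different genes were not compared, because probes differ in brightness. Genes in the lowest 30% by mean level, under 6.44, were left out of the tests as dim: Hoxb2, Hoxb8, Hoxb13, Hoxc5, Hoxc9 and Hoxc12. Of these Hoxb2 lay nearest to the limit (6.43), and among the 16 members tested Hoxa7 had the lowest mean level (6.60). A gene is named called where limma, fitted to all 10154 genes tested, gave it an adjusted p under 0.05. Of these genes 18.1% were called between E2 and vehicle. Counts of members at an unadjusted p under 0.05 are given without a share of all genes at that threshold. They cannot be set against the other genes.

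Array medians ran from 86.3 to 124. Vehicle rat 1 stood apart over all genes: the interquartile range of its log2 intensities was 2.70, while the others had 1.87 to 2.35, and 52% of the genes tested had their highest value of 12 in this rat. The count of called members between E2 and vehicle, and the values that moved most in that comparison, are therefore also given without it. The median difference between E2 and vehicle over all genes tested was -0.11 on the deposited scale and 0.02 after median centring.

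Of the 16 members tested, 4 fell from vehicle to E2 and none rose: Hoxd9, Hoxd10, Hoxa7 and Hoxc4. By cluster these are 1 of 5 tested HoxA genes, 0 of 4 HoxB, the 1 tested HoxC gene and 2 of 6 HoxD. They are 25% of the members tested, beside 18.1% of all genes tested that were called in either direction and 9.44% that were called lower. The median difference over the 16 members was -0.30, beside -0.11 over all genes tested. In value 12 members were lower and 4 higher. The rats of the 2 groups did not overlap for the same 4 members, all lower, beside 27.2% of all genes in either direction and 17.1% lower.

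Hoxd9 is a gene of the middle of its cluster, known in the mouse from the limb and the lumbosacral axis. Its intensity was 628, 403 and 388 in the vehicle rats, 244, 209 and 185 with E2, 340.0, 339 and 380.0 with 3-MC, and 307, 294 and 270.4 with E2+3-MC. Every rat given E2 alone lay below every rat of the other groups, and the 6 rats given E2, with or without 3-MC, all lay below the 6 that were not. The level fell by 1.07 ± 0.20 from vehicle to E2, a 2.10-fold lower value (adjusted p = 0.00127). Its call held in each fit that left out 1 rat, with adjusted p from 3.6e-04 to 0.0132.

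Hoxd10, the next gene toward the 5′ end of the cluster, is known in the mouse from lumbar motor neurons and the hindlimb. Its intensity was 1343, 1309 and 1092 with vehicle and 868, 543 and 591 with E2, so that the groups did not overlap. With 3-MC it was 1299.8, 1172 and 1249, and with E2+3-MC 1157, 1020.4 and 1164. The rats given E2 alone were the low ones, and those given both compounds overlapped the vehicle rats. The fall from vehicle to E2 was 0.91 ± 0.20, or 1.88-fold (adjusted p = 0.00379), and the call held without any 1 rat (adjusted p from 0.00119 to 0.0288).

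Hoxa7, known in the mouse from the thoracic skeleton, had intensities of 107, 97.9 and 110.2 with vehicle and 66.1, 59.1 and 53.1 with E2. With 3-MC they were 79.7, 86.0 and 107, and with E2+3-MC 73.6, 78.2 and 75.1. The vehicle and E2 rats did not overlap, and the E2+3-MC rats fell between them. The fall was 0.68 ± 0.17 (adjusted p = 0.0114), and it missed the threshold without E2 rat 3 (adjusted p = 0.0674).

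Hoxc4, known from the cervical axis and, in mouse B cells, as an activator of the antibody diversification enzyme AID, read 142, 136 and 101 with vehicle. With E2 it read 85.2, 64.9 and 39.1, below all vehicle rats, so that the groups were separate. In the rats given 3-MC it was 156, 115 and 179, and in those given E2+3-MC 109, 106 and 73.2. The fall from vehicle to E2 was 0.88 ± 0.24, or 1.84-fold (adjusted p = 0.0179). It missed the threshold without E2 rat 3 (-0.64, adjusted p = 0.126) and without vehicle rat 2 (-0.83).

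**Figure D1:**
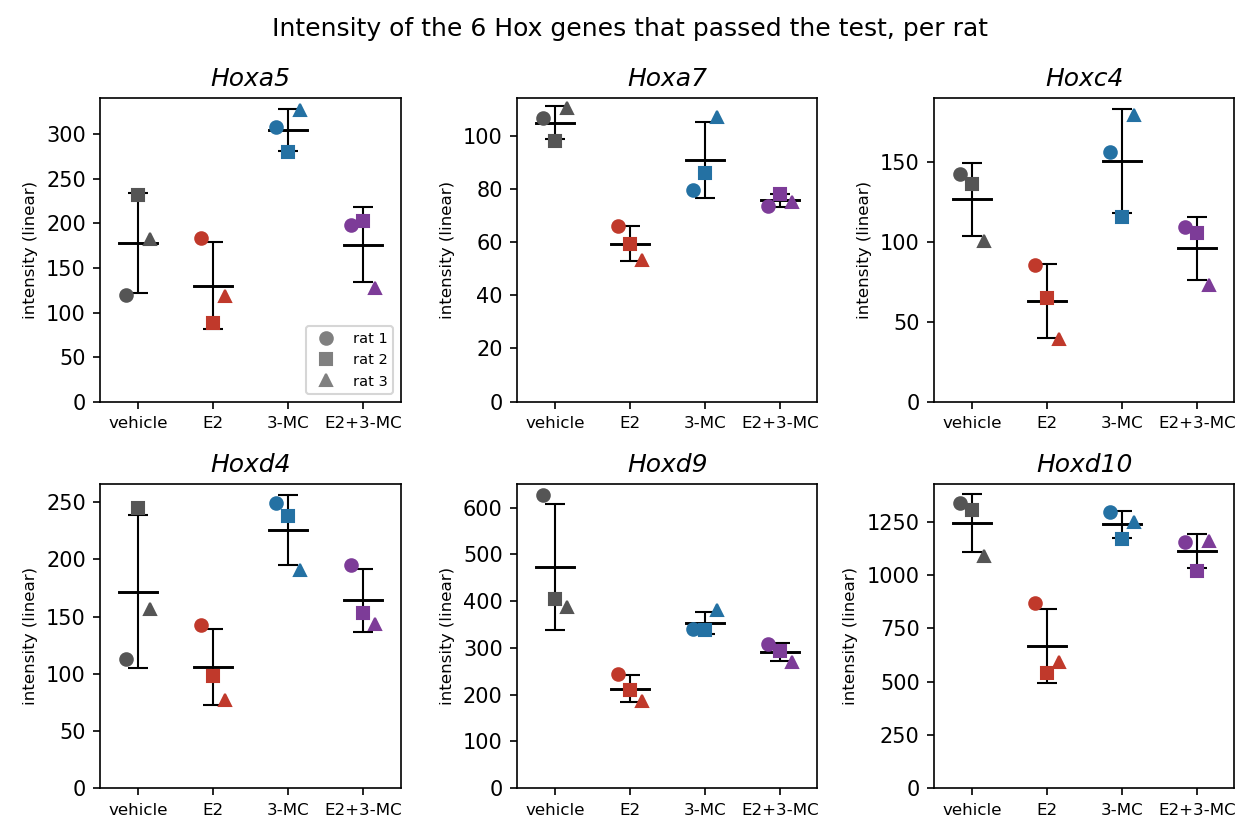
Intensity (linear scale) of the 6 Hox genes that passed the test for estradiol, in each of 12 rats by group, with marker shape for the rat number, the horizontal line for the mean of 3 rats and the bar for 1 SD. All 6 genes have their lowest group mean in the rats given E2 alone, and for Hoxa5, Hoxd4 and Hoxc4 the 3-MC group has the highest mean.

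The rest of the HoxD cluster differed less, by position. Reading from the 5′ end, the E2 minus vehicle difference was 0.08 ± 0.29 for Hoxd13, a gene of the digits and the lower urogenital tract. It was -0.91 for Hoxd10, -1.07 for Hoxd9 and an uncalled -0.59 ± 0.25 for Hoxd4 (adjusted p = 0.114). Hoxd3 and Hoxd1 at the 3′ end differed by -0.29 ± 0.18 and -0.12 ± 0.19, both uncalled, and Hoxd1 was at 0.03 without vehicle rat 1. With all arrays the lowest values were thus at Hoxd9 and Hoxd10, a description over 6 genes that share the same 6 arrays. Without vehicle rat 1, Hoxd4 (-0.83) lay close to Hoxd9 and Hoxd10 (-0.86 each), with Hoxd3 at -0.43 and Hoxd13 at 0.55. Hoxd8, Hoxd11 and Hoxd12 had no probe set of their own, so that the order along the cluster has gaps.

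In the HoxC cluster only Hoxc4 was bright enough to be tested. Its neighbour Hoxc5 was dim, at intensities of 63.0, 82.5 and 87.6 with vehicle and 45.9, 29.4 and 25.2 with E2, which did not overlap. Hoxc9 was dim as well, at 34.6, 53.4 and 60.3 with vehicle and 29.8, 22.8 and 19.2 with E2, also without overlap. With 3-MC Hoxc5 was at 91.7, 74.3 and 109, and with E2+3-MC at 78.0, 63.9 and 40.6, so that the E2 rats overlapped only those given both. The E2 minus vehicle differences are -0.93 and -0.70, beside -0.88 for Hoxc4. When dim genes were tested too, Hoxc5 was called (adjusted p = 0.00932) and Hoxc9 was not (adjusted p = 0.0740), beside 15% of 14506 genes. Hoxc12, at the other end, differed by -0.19, with overlap between the rats.

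The HoxA genes other than Hoxa7 were not called. Hoxa11, which in the mouse is needed for the uterine stroma and glands, had intensities of 1153, 550.3 and 404 with vehicle and 539, 539 and 459 with E2. With 3-MC it was at 446, 494 and 384, and with E2+3-MC at 561, 359 and 476. Vehicle rat 1 was the highest of all 12, and apart from it the groups overlapped. The E2 minus vehicle difference was -0.31 ± 0.29 with a 95% interval from -0.92 to 0.30. Without vehicle rat 1 it was 0.11, and neither value passed the test (adjusted p = 0.491 and 0.690). Hoxa4 and Hoxa5 differed by -0.33 ± 0.21 and -0.42 ± 0.26, and Hoxa2 by 0.01 ± 0.19.

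The 4 tested genes of the HoxB cluster lay between -0.19 and 0.11 in this comparison, with none called. Hoxb4, a gene of the neck and upper thorax, read 146, 153 and 175 with vehicle, 151, 123 and 135 with E2, 205, 149 and 163 with 3-MC, and 167, 161 and 136 with E2+3-MC, and all 4 groups overlapped. The differences were -0.19 ± 0.18 for Hoxb4, -0.18 ± 0.19 for Hoxb3, 0.01 ± 0.21 for Hoxb7 and 0.11 ± 0.19 for Hoxb9. The 95% intervals ran as low as -0.59 for Hoxb3 and as high as 0.52 for Hoxb9, so that changes of that size cannot be told from none. Without vehicle rat 1 the 4 genes ran from -0.32 (Hoxb3) to 0.22 (Hoxb7), again with none called. The dim genes Hoxb2, Hoxb8 and Hoxb13, the last known from prostate and hindgut, differed by -0.17, -0.03 and -0.06, with overlapping rats. HoxB also holds the paralog of Hoxd9. Within each array, the log2 level of Hoxd9 minus that of Hoxb9 was 2.80, 2.15 and 1.63 with vehicle and 1.20, 0.78 and 1.06 with E2. It was 1.51, 1.84 and 1.83 with 3-MC and 1.31, 1.37 and 1.20 with E2+3-MC. Only changes of this ratio can be read, and the scale of an array does not cancel fully, because the levels hold the offset of 16. The 6 rats given E2 lay between 0.78 and 1.37 and the 6 others between 1.51 and 2.80. Of 9 such pairs of tested paralogs this was the only 1 without overlap, and in the other 8 the rats given E2 overlapped those not given it. Hoxd9 by itself already separated the same 6 rats from the other 6, so that its ratio is no separate evidence. Between E2 alone and vehicle, Hoxc4 minus Hoxa4, Hoxb7 minus Hoxa7 and Hoxc4 minus Hoxb4 did not overlap either. Each of these pairs holds Hoxc4 or Hoxa7, which already separated these groups by themselves, so that these ratios are no separate evidence either. No share over other pairs of genes is given.

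**Figure D2:**
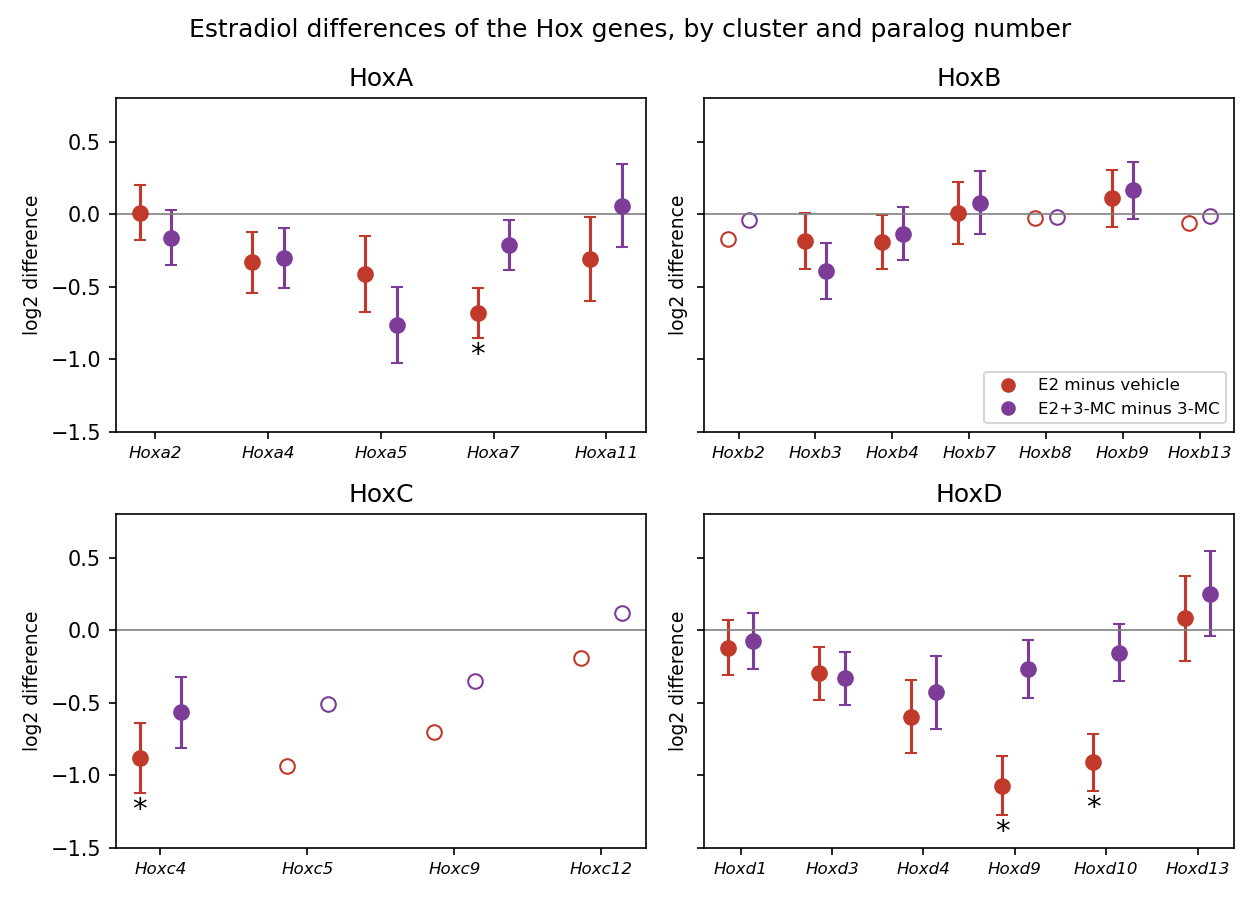
Log2 differences of all 22 Hox genes, ordered by paralog number within each cluster, for E2 minus vehicle and for E2+3-MC minus 3-MC (3 rats a group). Filled points are tested genes with ± 1 SE, open points are dim genes that were not tested, and an asterisk marks an adjusted p under 0.05. In E2 minus vehicle the HoxB genes lie near 0 and the lowest points are Hoxd9, Hoxc5, Hoxd10 and Hoxc4. In E2+3-MC minus 3-MC, Hoxb3 lies at -0.39.

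Without vehicle rat 1, 8 of 17 members tested were called between E2 and vehicle, 7 lower and 1 higher, and the 4 named above were all among them. The share of all genes called rose too, to 34.8%. Hoxa5 (-0.65), Hoxd3 (-0.43) and Hoxd4 (-0.83) then joined the lower ones, and Hoxd13 was called higher at 0.55 (adjusted p = 0.0172). Without this rat single members were also called in comparisons that had none: Hoxd13 for E2+3-MC minus vehicle (0.73, beside 26.6% of all genes called), Hoxd10 for E2+3-MC minus E2 (0.75, beside 1.15%) and Hoxa5 for E2+3-MC minus 3-MC (-0.76, beside 21.4%). Each is 1 of 17 members tested in that fit. Without vehicle rat 3, Hoxd9 was called for E2+3-MC minus vehicle (-0.76, beside 6.44%). Hoxd13 had been read at 303, 113 and 94.5 in the vehicle rats and at 158, 159 and 162 with E2. Without E2 rat 3, Hoxd9 and Hoxd10 were called and Hoxa7 and Hoxc4 were not, beside 9.69% of all genes.

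**Figure D3:**
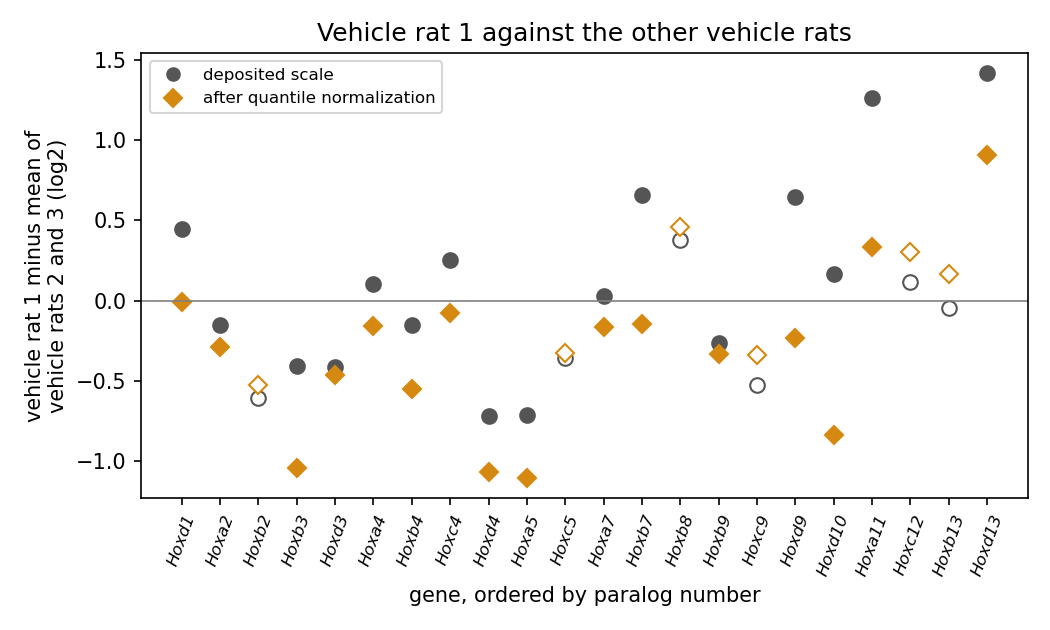
Level of each Hox gene in vehicle rat 1 minus the mean of vehicle rats 2 and 3 (log2), by gene, on the deposited scale and after quantile normalization. Hoxd13 and Hoxa11 lie above 0 on both scales, and Hoxa5, Hoxd4 and Hoxb3 lie below 0 on both.

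The second comparison of estradiol, E2+3-MC against 3-MC, asks how the genes respond where 3-MC is present in both groups. None of the 16 members was called by limma, beside 8.21% of all genes called. At the looser threshold, an unadjusted p under 0.05 with no share of all genes to set beside it, there were 2 members. The 2 were Hoxa5 and Hoxc4. Hoxa5, known in the mouse from lung and mammary gland, was at 308, 281 and 327 with 3-MC and at 198, 203 and 128 with E2+3-MC, without overlap. With E2 alone it was at 184, 88.7 and 118, within or below the range of the vehicle rats. Its difference of -0.76 ± 0.26 had an adjusted p of 0.0910, and after quantile normalization it was called at -0.91 (adjusted p = 0.0216). Hoxc4 differed by -0.57 ± 0.24 (adjusted p = 0.189) and was called at -0.63 after quantile normalization (adjusted p = 0.0163). Hoxd9 differed by -0.27 ± 0.20, Hoxd10 by -0.15 ± 0.20 and Hoxa7 by -0.21 ± 0.17.

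In 7 of the 16 members the E2+3-MC rats lay wholly below the 3-MC rats and in 0 wholly above, namely Hoxa5, Hoxa7, Hoxb3, Hoxc4, Hoxd3, Hoxd9 and Hoxd10. Over all genes tested, 37.3% did not overlap in this comparison and 11.6% lay wholly lower. After quantile normalization 5 members were called, all lower: Hoxa5, Hoxc4, Hoxd3, Hoxd9 and Hoxd10. The share of all genes called was then 27.5%.

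Over both settings together, the 6 rats given E2 were set against the 6 not given it, as the mean of the 2 estradiol differences. In this contrast 6 of 16 members fell and none rose (37.5%, beside 25.6% of all genes called and 10.6% called lower). Hoxc4 fell by 0.72 ± 0.17 (adjusted p = 0.00463), Hoxd9 by 0.67 ± 0.14 (0.00216) and Hoxd10 by 0.53 ± 0.14 (0.00933). Hoxa7 fell by 0.45 ± 0.12 (adjusted p = 0.0125), and Hoxa5 and Hoxd4, a gene of the neck region and the hindbrain, fell by 0.59 ± 0.19 and 0.51 ± 0.18 (adjusted p = 0.0264 and 0.0447). Hoxd4 read 113, 245 and 157 with vehicle, 143, 97.9 and 77.4 with E2, 249, 238 and 191 with 3-MC and 195, 153 and 143 with E2+3-MC. The rats given E2 overlapped those not given it for Hoxd4, Hoxa5, Hoxc4 and Hoxd10. They did not for Hoxd9 and Hoxa7, beside 11.5% of all genes in either direction and 5.57% lower. The calls of Hoxc4, Hoxd9 and Hoxd10 held in each fit without 1 rat, those of Hoxa5 and Hoxd4 were lost in 6 and 7 of these 12 fits, and that of Hoxa7 in 1. The call of Hoxd4 was also lost after median centring (adjusted p = 0.0514).

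**Figure D4:**
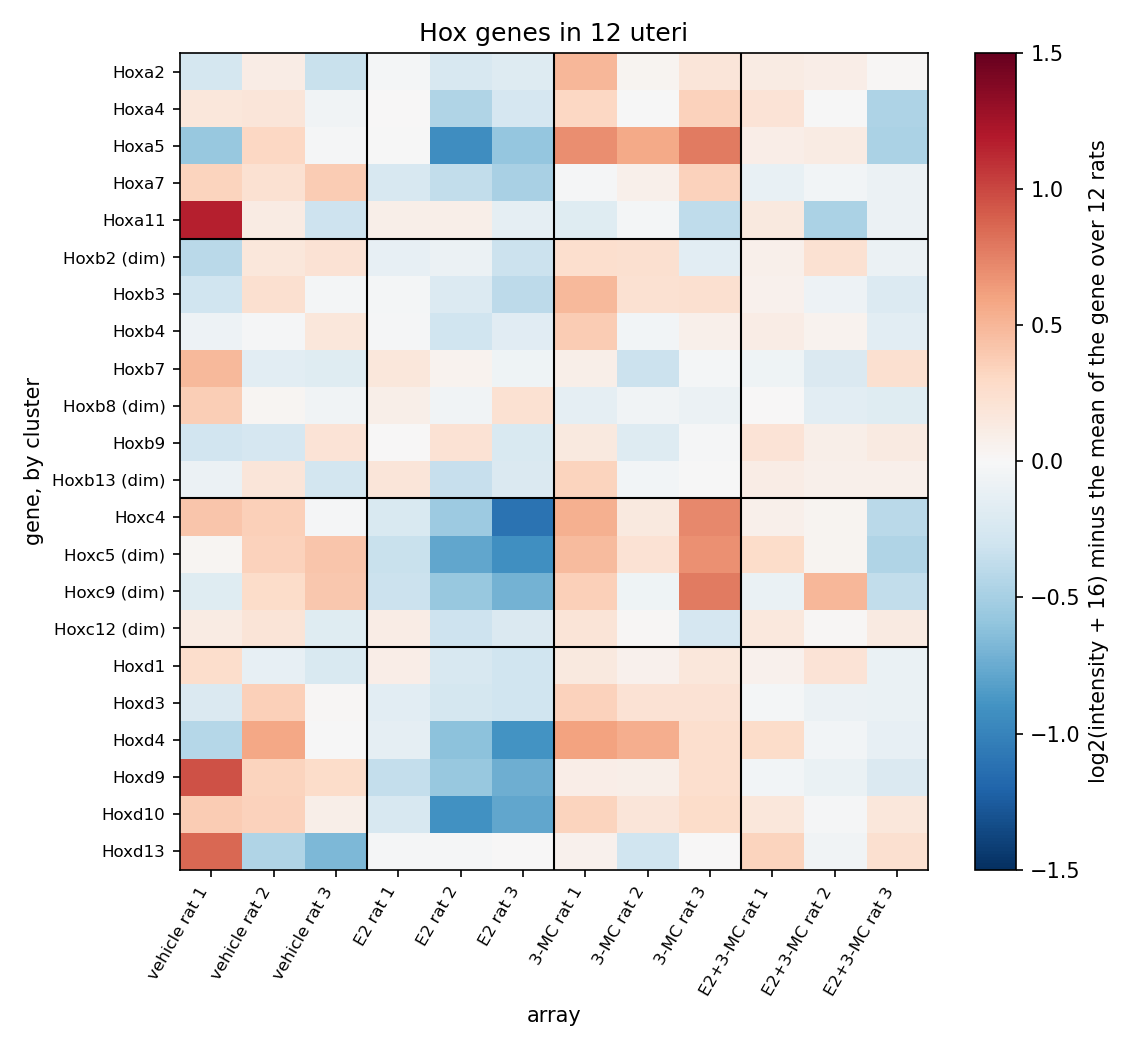
Levels of the 22 Hox genes in the 12 uteri, as log2(intensity + 16) minus the mean of the gene over all rats, with genes ordered by cluster and number and arrays by group. The E2 columns are below the mean for Hoxa7, Hoxc4, Hoxc5, Hoxc9, Hoxd9 and Hoxd10, Hoxa5 is above it in the 3-MC columns, and vehicle rat 1 is high for Hoxa11, Hoxd9 and Hoxd13.

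3-MC without estradiol was not followed by a called change in any member. Of the 16 tested, 0 were called by limma between 3-MC and vehicle, beside 0% of all genes. Hoxa5 and Hoxa2, 2 members, had an unadjusted p under 0.05, a threshold without a share of all genes here. Hoxa5 was at 119, 232 and 182 with vehicle, all below the 308, 281 and 327 with 3-MC, a difference of 0.77 ± 0.26 (adjusted p = 1). Hoxa2, a hindbrain gene of the 3′ end, differed by 0.41 ± 0.19. Hoxd9 lay lower in all 3 rats given 3-MC than in all vehicle rats, at -0.38 ± 0.20, with no call. The margin was narrow, 388 in the lowest vehicle rat against 380.0 in the highest 3-MC rat. Vehicle rat 1 (628, with 403 and 388 in the others) weighs on this difference, which is not given without it. In this comparison 2 of 16 tested members did not overlap, beside 3.1% of all genes tested.

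The addition of 3-MC to estradiol was read from E2+3-MC minus E2. This comparison uses the same E2 rats in which the 4 members were found low, so that their direction here is no separate evidence. Of 16 members, 0 were called by limma between E2+3-MC and E2 (0% of all genes). An unadjusted p under 0.05, a threshold without a share of all genes here, was reached by 4. These were Hoxd10 at 0.75 ± 0.20 (adjusted p = 0.488), Hoxd4 at 0.59 ± 0.25, Hoxc4 at 0.53 ± 0.24 and Hoxd9 at 0.43 ± 0.20. In 6 of 16 members the rats given both lay wholly above those given E2 alone: Hoxa2, Hoxa7, Hoxd3, Hoxd4, Hoxd9 and Hoxd10. This was also so for 16.7% of all genes tested (17.9% in either direction), in a comparison in which the array medians of the 2 groups did not overlap. After quantile normalization the median difference over the members went from 0.19, beside 0.15 over all genes tested, to 0.01, while Hoxd10 kept a value of 0.68 (adjusted p = 0.219).

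Whether 3-MC altered the estradiol difference was tested as the interaction, which is the estradiol difference with 3-MC minus that without it. No member was called by limma, beside 0% of all genes. An unadjusted p under 0.05, again without a share of all genes, was reached by 2. These were Hoxd9 at 0.80 ± 0.29, with a 95% interval from 0.20 to 1.41, and Hoxd10 at 0.76 ± 0.28, from 0.17 to 1.34 (adjusted p = 0.977 for both). The Hoxd9 value also holds vehicle rat 1, which lay 0.65 above the mean of the other vehicle rats, and is not given without it. For Hoxa5 the interval ran from -1.13 to 0.43 and for Hoxc4 from -0.41 to 1.03. The median interaction on this deposited scale was 0.19 over all genes tested and 0.07 over the 16 members. After quantile normalization Hoxd9 was at 0.56 and Hoxd10 at 0.47. As a 3-MC main effect, 6 rats against 6, 0 members were called, beside 0% of all genes called. At the looser threshold, an unadjusted p under 0.05 with no share of all genes to set beside it, there were 5 members. Among these were Hoxa5 at 0.59 ± 0.19 and Hoxd4 at 0.50 ± 0.18 (adjusted p = 0.794 for both). Rats given both compounds, set against vehicle, showed 0 called members by limma (7.84% of all genes). An unadjusted p under 0.05, again without a share of all genes, was reached by 2. These were Hoxd9 at -0.64 ± 0.20 (adjusted p = 0.0633) and Hoxa7 at -0.40 ± 0.17. The rats did not overlap for these 2, as for 17.9% of all genes. Hoxd9 was called there after quantile normalization (-0.75) and median centring (-0.71), as was Hoxa7 (-0.51 and -0.47), while 27.1% and 18% of all genes were called on these scales. All these comparisons share groups, so that their values are not independent.

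Markers of several cell types differed in the same arrays. Of 10 epithelial markers tested, 7 rose with E2 and 0 fell, and the mean level of the list ran from 8.30 to 9.41 in the vehicle rats and from 9.97 to 10.26 with E2. Of 9 endothelial markers 7 fell and 0 rose, with mean levels from 8.36 to 9.10 with vehicle and from 7.73 to 7.83 with E2. Of 10 stromal markers 3 rose and 1 fell (9.12 to 10.45 and 9.47 to 9.95), and of 9 smooth muscle markers 2 rose and 0 fell (10.77 to 11.62 and 11.28 to 11.44). Of 9 macrophage markers 4 rose and 0 fell (7.15 to 8.45 and 8.17 to 8.84), and of 8 adipocyte markers 0 rose and 6 fell (8.09 to 10.58 and 7.21 to 7.69). Within each cell type, the called markers with the largest differences included the epithelial genes Elf3 (3.53 ± 0.29) and Krt8 (2.93 ± 0.38). They also included the smooth muscle gene Des (1.12 ± 0.26), the endothelial gene Cldn5 (-1.12 ± 0.26), the macrophage gene Cd68 (1.59 ± 0.38) and the adipocyte gene Fabp4 (-3.59 ± 1.12). The stromal genes went both ways, with Mme at 1.60 ± 0.28 and Tcf21 at -1.24 ± 0.33. The median of the stromal list was -0.32, beside -0.11 over all genes tested. Between 3-MC and E2+3-MC the adipocyte list did not fall: its median was 0.49, with 1 of 8 called higher and 0 lower. Fabp4 was there at an uncalled 1.86 ± 1.12 and Adipoq at a called 3.04 ± 0.73. There 6 epithelial, 5 macrophage, 3 stromal and 2 smooth muscle markers were called higher and 0 endothelial ones, beside 8.21% of all genes. Adipoq was also higher from vehicle to E2, uncalled at 1.49 ± 0.73. The part of these shifts in the Hox differences was not tested.

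Partners and regulators of Hox proteins were described from lists chosen for their known roles. The counts of these lists, and of the marker lists, stand beside 18.1% of all genes called between E2 and vehicle. Of 9 genes of the TALE family, whose products bind DNA together with Hox proteins, 1 fell between vehicle and E2 and 0 rose: Meis2, by 1.22 ± 0.18 (adjusted p = 1.71e-04). Of 17 genes of Polycomb, Trithorax and related chromatin complexes, which keep Hox genes silent or active, 4 fell and 0 rose. These were Cbx7 (-1.18 ± 0.21) and Pcgf2 (-1.05 ± 0.24), both subunits of Polycomb complex 1, the H3K27 demethylase gene Kdm6b (-1.03 ± 0.20) and the H3K4 methyltransferase gene Kmt2d (-0.77 ± 0.18). The list medians were -0.35 and -0.19, beside -0.11 over all genes tested.

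Retinoic acid is the best known inducer of Hox genes in the embryo. Of 13 tested genes of its synthesis, transport and receptors, 1 rose and 4 fell with E2. The breakdown genes Cyp26a1 and Cyp26b1 were dim and not tested. The retinaldehyde dehydrogenase gene Aldh1a1 fell by 2.86 ± 0.24 and the retinaldehyde reductase gene Dhrs3 by 1.59 ± 0.25. The retinol carrier gene Rbp4 fell by 1.70 ± 0.49, while Crabp2, which carries retinoic acid to its receptor, rose by 2.29 ± 0.35. The list median was -0.40. Aldh1a1, Dhrs3 and Crabp2 changed the same way between 3-MC and E2+3-MC (-1.97, -1.02 and 1.22, each called), and Rbp4 did not pass (0.30 ± 0.49).

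Of 20 tested genes linked to Hoxa10 or Hoxa11 or to the patterning of the uterus, 3 rose and 6 fell with E2. The largest differences were in the cell cycle inhibitor gene Cdkn1a (2.24 ± 0.32), the prostaglandin receptor gene Ptger3 (-2.04 ± 0.26), the implantation cytokine gene Lif (1.97 ± 0.25) and the growth factor gene Gdf10 (-1.85 ± 0.28). Of 24 other homeobox genes tested, which lie outside the Hox clusters, 3 fell and 0 rose: Msx2 (-1.36 ± 0.27) and Msx1 (-1.08 ± 0.21), which in the mouse uterus are needed for implantation, and the caudal gene Cdx2 (-0.51 ± 0.17). Msx1 and Msx2 are in both of these lists. Of the other homeobox genes the median was -0.19, beside -0.30 for the Hox genes tested.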

How the data were processed

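RNA of each uterus was measured on 1 Affymetrix array, per the labels' protocols. The values the authors deposited are linear intensity summaries of probe sets, for which the submitters' processing notes name PLIER and Expression Console. For the software versions and any normalization between arrays, nothing is stated in the labels. Of 29214 probe sets, 15310 had 1 gene symbol in the platform annotation, 323 had several and 13581 had none; the probe set with the highest mean was kept for each of 14506 genes.

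All 12 arrays entered 1 limma fit (version 3.58.1, R 4.3.3) of log2(intensity + 16) with a mean per group, after the lowest 30% of genes were left out. P-values were adjusted by Benjamini-Hochberg over 10154 genes, two-sided. The number of arrays limits the precision, with a median SE of 0.22 for a difference between 2 groups. The fit was checked on simulated data. Members of the gene lists named (up to 4 called ones, or none) follow a rule set with the lists; all Hox members are accounted for, with each rat's value for called members, Hoxa11 and the member of each cluster with the largest E2 minus vehicle difference. Members and lists were chosen with earlier results of these data known. Alternatives were other scales, offsets, filters, probe set means, variance models, array weights, a replicate block and leaving out each rat.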

Additional observations from a re-analysis of the deposited data

How the results depend on the processing

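The E2 minus vehicle count of 4 called members was 2 with 50% of genes left out as dim, which left 10 members tested, 10 with array weights (61% of all genes called), and 2 to 8 without 1 rat each; the E2 main effect count of 6 was 10 with array weights (63.8%) and 4 to 9 without 1 rat. Array weights, which gave vehicle rat 1 a weight of 0.0662 and 1 rat of E2+3-MC a weight of 5.52, also gave 5 members for both compounds against vehicle (44.9% of all genes), 14 for both against E2 (50.5%), 7 for both against 3-MC (38.7%), 4 for the interaction (11%) and 11 for the 3-MC main effect (41.3%). Each of these 5 counts was 0 in the unweighted fit of all 12 arrays as deposited. Quantile normalization, over genes or over all probe sets, gave 3 members for both against vehicle and 5 for both against 3-MC. Of all genes, 27.1% and 27.5% were called on the first of these scales and 26.1% in each comparison on the second. Median centring gave 2 and 2 members, beside 18% of all genes in each comparison. Median centring over all probe sets, chosen with the other all-probe-set scale after the data were seen, gave 1 and 0, beside 10.5% and 11.4%. Without 1 rat, the counts ran from 0 to 1 for both compounds against vehicle, against E2 and against 3-MC and stayed at 0 for 3-MC minus vehicle, the interaction and the 3-MC main effect. No called member changed its direction under any of these settings. Same-numbered rats of different groups had correlated deviations over 0.1 in 8 of 18 pairs, 5 of them between rats numbered 2, and 2 of 12 rats correlated best with their own number. The labels give no shared litter or batch, so the numbers were not taken to pair the rats. A replicate block gave 1 member, Hoxd9, for both against vehicle in place of 0 (adjusted p = 0.0318), beside 10.7% of all genes called there. For E2 minus vehicle, the block moved the count of all genes called from 1842 to 2545. The causes of these shifts were not tested.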

Other observations

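Hox levels in vehicle rat 1 lay on both sides of those in vehicle rats 2 and 3. On the deposited scale its level minus the mean of the other 2 was 1.42 for Hoxd13, 1.26 for Hoxa11, 0.66 for Hoxb7, 0.65 for Hoxd9 and 0.44 for Hoxd1, and it was -0.72 for Hoxd4, -0.71 for Hoxa5 and -0.41 for Hoxd3 and Hoxb3 and -0.26 for Hoxb9. Of the 5 tested members numbered 9 to 13, 4 had their highest value of 12 in this rat and 1 was lowest of the vehicle rats. Of the 9 numbered 1 to 5, 1 was highest of 12 and 5 were lowest of the vehicle rats. For the 2 numbered 7 these counts were 1 and 0. Over all genes tested, the median of the same difference was 0.62, 52% were highest in this rat and 11% were lowest of the vehicle rats. After quantile normalization the median over all genes was 0.00. Hoxd13 (0.91) and Hoxa11 (0.33) were then above the mean of the other 2 vehicle rats and the other 14 tested members below it. These ran from -0.01 for Hoxd1 down to -1.10 for Hoxa5, with Hoxd10 (-0.84), Hoxb9 (-0.33) and Hoxd9 (-0.23) among them. The split by number was seen in the data and rests on 1 animal, and its cause was not tested.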
